A study of Mus musculus with 6 samples.

Results

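The transcripts followed here were those of 10 genes known from blastocyst dormancy: the Myc family (*Myc*, *Mycn* and *Mycl*), the kinase gene *Mtor* with the partner genes *Rptor* and *Rictor*, the effector gene *Eif4ebp1*, and *Ddit4*, *Sesn2* and *Tsc2*, whose products restrain mTOR. They were picked out by gene symbol from the 23420 genes counted in each tissue. Symbols of 9 of them were listed as such, and *Mycl* was found under its synonym *Mycl1*. All 10 had at least 10 counts in each tissue and were analysed in every library.

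A dormant blastocyst stops growing before it attaches to the uterus and resumes growth once the uterus becomes receptive, and in the mouse the uterine cytokine leukemia inhibitory factor (Lif) is needed for attachment. Myc proteins are transcription factors that drive ribosome production and cell growth, and their amount is low in the dormant blastocyst. The mTOR kinase works in complexes, mTORC1 with Raptor (*Rptor*) and mTORC2 with Rictor. mTORC1 promotes translation, in part by phosphorylating 4E-BP1 (*Eif4ebp1*), and partial inhibition of mTOR can pause blastocysts in culture. Its activity is set by phosphorylation and by its place at the lysosome, neither of which is measured by transcript counts.

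RNA was sequenced from the luminal layer of the mouse uterus, cut out by laser microdissection, and from flushed blastocysts, all at 8 pm on pregnancy day 4. The luminal groups were Lif-floxed/floxed females given PBS (control), Lif-floxed/floxed Ltf-Cre/+ females given PBS (*Lif* eKO), and females of the *Lif* eKO genotype injected with recombinant Lif (rLif), 20 µg per head, once at 10 am and again at 6 pm, with dissection 2 h after the second injection. The blastocysts came from uteri of these same 3 kinds. Their own genotype was Lif-floxed/+ in all 3 groups, so "eKO" describes the mother, and the control blastocysts also carried the floxed allele. The *Ltf* promoter drives Cre in the uterine epithelium, and the age of the animals was not in the labels. A group, 6 in all, consisted of 1 library from pooled RNA or pooled blastocysts. There was thus no replicate, the spread between pools is unknown, no difference has a test, and every ratio compares 2 libraries.

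Total counts were 23850565 to 28460465 in the luminal libraries and 18996158 to 19638852 in the blastocyst libraries. *Lif*, the targeted gene, had 0, 28 and 0 luminal counts in the libraries labelled control, *Lif* eKO and rLif-treated eKO. All sets of 3 values below are in this order. Counts of *Lif* in the library labelled eKO alone go against its label. They are few, however, and with 0 in control a loss could not have shown. Gene-level counts cannot separate deleted from kept exons, and *Lif* is known as a product of the uterine glands. Luminal libraries are therefore called by their labels, and every luminal direction below rests on those labels. Blastocysts had 1447, 1736 and 1250 *Lif* counts in the same order. All 13 markers of luminal epithelium and uterus had counts in each luminal library, where *Nanog* and *Pou5f1*, markers of the inner cell mass, had 0. In blastocysts 12 of these 13 also had counts in each library (*Wnt7a* was at 0). Levels of 1 gene or marker list are given as CPM, the count relative to sequencing depth, with depths scaled by the trimmed mean of M-values (TMM). Trophectoderm markers summed to 2837 to 3159 CPM in blastocysts and to 5.64 to 15.6 CPM in the luminal layer. The 6 inner cell mass markers summed to 1453 to 1689 CPM in blastocysts and to 0.08 to 0.66 CPM in the luminal layer. There *Sox2* had counts in the libraries labelled control and eKO, and *Tdgf1* in the rLif-treated one. Markers of primitive endoderm, by contrast, summed to 536 to 629 CPM in blastocysts and to 1179 to 2619 CPM in the luminal layer, where *Gata4* was at 0. Most of that luminal sum came from 1 of these markers, *Sox17*, with a mean of 1766 CPM over the luminal libraries. In such bulk samples, fewer cells of a type and less RNA per cell cannot be told apart.

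Ratios of 2 libraries are given on the log2 scale with exact 95% Clopper-Pearson intervals, and single levels with exact Poisson ones. These allow for counting error alone. A gene was called higher or lower when its whole interval lay beyond a log2 ratio of 1, that is, past 2-fold. Levels of different genes are compared only as RPKM, which is CPM per kilobase of exon.

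The luminal library labelled eKO had 3 of the 10 genes lower than control (*Myc*, *Mycn* and *Eif4ebp1*) and 0 higher. Of all 15694 luminal genes, 17.2% were called in this comparison, 8.08% higher and 9.15% lower. For rLif-treated eKO against control, 4 were lower (*Mycn*, *Mycl*, *Ddit4* and *Sesn2*) and 0 higher, where 9.16% of all genes were called, 4.12% higher and 5.04% lower. When treated and untreated eKO libraries were compared, 1 was higher (*Eif4ebp1*) and 2 were lower (*Mycl* and *Sesn2*), where 15.6% of all genes were called, 7.88% higher and 7.77% lower. The median log2 ratios of the 10 genes were -0.17, -0.43 and 0.12 in these comparisons, and those of all luminal genes lay between -0.01 and 0.01. These comparisons share libraries, so they are not independent of each other. By edgeR's exact test with the study's limits and an assumed dispersion (spread between pools) of 0.1, *Mycn* and *Eif4ebp1* were still called lower in eKO, but *Myc* was not. In the treated library only *Mycn* was then called against control, and *Eif4ebp1*, *Mycl* and *Sesn2* against eKO, and none was called at a dispersion of 0.4.

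Other cell markers also differed between the luminal libraries. The 10 stromal markers summed to 807, 1214 and 840 CPM, the highest in the library labelled eKO, where *Myc* and *Eif4ebp1* were lowest. The 6 glandular markers summed to 11.01, 13.3 and 24.8 CPM and the 6 smooth muscle markers to 70.4, 50.5 and 31.4 CPM, so the library labelled rLif-treated eKO had the highest and the lowest sum, respectively. The 5 endothelial markers summed to 45.9, 66.4 and 91.2 CPM, the highest in the treated library, and the 8 immune markers to 921, 779 and 806 CPM. The 13 markers of luminal epithelium and uterus summed to 7948, 10537 and 7454 CPM. The part of these cells in the luminal results was not tested.

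In blastocysts 0 of the 10 genes were called for eKO against control and 0 for rLif-treated eKO against control. Of all 14873 blastocyst genes, 3.15% were called in the former comparison (1.29% higher and 1.86% lower) and 4.94% in the latter (0.948% higher and 3.99% lower). For rLif-treated against untreated eKO, *Ddit4* was called lower (a call lost at both assumed dispersions), where 3.75% of all genes were called, 0.914% higher and 2.83% lower. The median absolute log2 ratio of the 10 genes was 0.09, 0.25 and 0.16 in the blastocyst comparisons and 0.43, 0.56 and 0.63 in the luminal ones. For eKO against control, 6 of the 10 blastocyst intervals spanned 0. Of all 14873 blastocyst genes, 3393 had intervals wholly above 0 and 3274 wholly below, so spanning 0 was common. *Myc*, *Ddit4* and *Mycn* were farthest from control in both blastocyst comparisons with it.

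**Figure D1:**
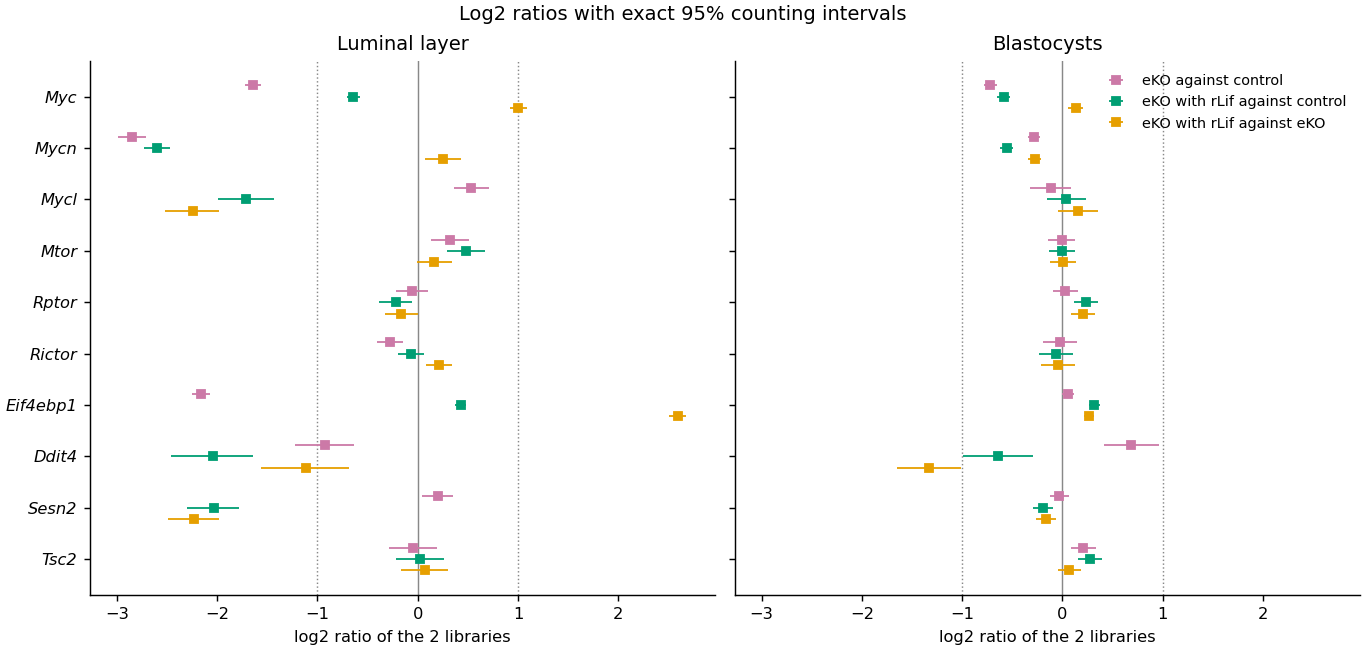
Log2 ratios of the 10 genes for the 3 comparisons within the luminal layer (left) and within blastocysts (right). Bars are exact 95% counting intervals and dotted lines mark the limit of 2-fold. Luminal ratios run from -2.85 (*Mycn*) to 2.59 (*Eif4ebp1*), blastocyst ratios from -1.33 to 0.68 (both *Ddit4*).

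The Myc family was examined first. *Myc* (chromosome 15, 61985341 to 61990361, GRCm38/mm10, plus strand, protein coding) had 4626, 1683 and 3056 luminal counts. These are equal to 183, 58.6 and 117 CPM. *Myc* fell 3.13-fold (interval 2.96 to 3.31) in the library labelled eKO against control, a log2 ratio of -1.64. The library labelled rLif-treated eKO lay between the other luminal libraries, with a log2 ratio of -0.64 against control. Against the library labelled eKO its ratio was 1.00 (interval 0.92 to 1.09), which crossed the limit, so that this difference was not called.

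*Mycn* (chromosome 12, 12936093 to 12941836, minus strand, protein coding), which encodes N-Myc, had 3191, 505 and 544 luminal counts, or 126, 17.6 and 20.9 CPM. It was high only in the luminal library labelled control. *Mycn* fell 7.19-fold with an interval of 6.54 to 7.91 (library labelled eKO) and 6.05-fold with an interval of 5.52 to 6.64 (rLif-treated eKO), each against control. The rLif-treated library differed from the untreated eKO library by a log2 ratio of 0.25 (interval 0.07 to 0.43). *Myc* in the treated library was thus nearer to control than *Mycn* was, with log2 ratios of -0.64 and -2.60.

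*Mycl* (chromosome 4, 122996099 to 123002480, plus strand, protein coding), which encodes L-Myc, had yet another order, with 441, 727 and 139 luminal counts. It was lowest in the library labelled rLif-treated eKO, where it fell 3.27-fold (interval 2.70 to 3.99) against control and 4.74-fold (interval 3.95 to 5.73) against eKO. Its ratio between the libraries labelled eKO and control was 0.54 and was not called. Summed over the 3 genes, the family reached 130, 38.4 and 58.5 RPKM in the luminal libraries. *Mycn* made up 37.4%, 17.6% and 13.8% of that sum, while *Myc* made up 58.7%, 63.5% and 83.6%.

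In blastocysts all 3 Myc family genes were present, and none of them was called in any comparison. *Myc* had 4756, 2961 and 3227 blastocyst counts, or 249.5, 151 and 166 CPM. The control library was the highest, and the other 2 differed by a log2 ratio of 0.13. The log2 ratio was -0.72 (interval -0.79 to -0.65) for eKO against control. A ratio of this size was rare among blastocyst genes of similar abundance. It was larger, in either direction, than that of 99.5% of the genes in the most abundant of 3 equal classes. *Mycn* had 5099, 4302 and 3536 counts, the lowest in the rLif-treated library, and its ratios against control were -0.28 for eKO and -0.56 for rLif-treated eKO. The markers of luminal epithelium and uterus, some of which (*Krt7* and *Krt19*) are also known from trophectoderm, had the same order in blastocysts, with sums of 3493, 3248 and 2689 CPM, and their part in the *Mycn* values was not tested. *Mycl* had 428, 404 and 448 counts, with all 3 ratio intervals spanning 0. Summed, the family reached 213, 154 and 146 RPKM, of which *Mycn* made up 48.3%, 55.1% and 48.0%.

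**Figure D2:**
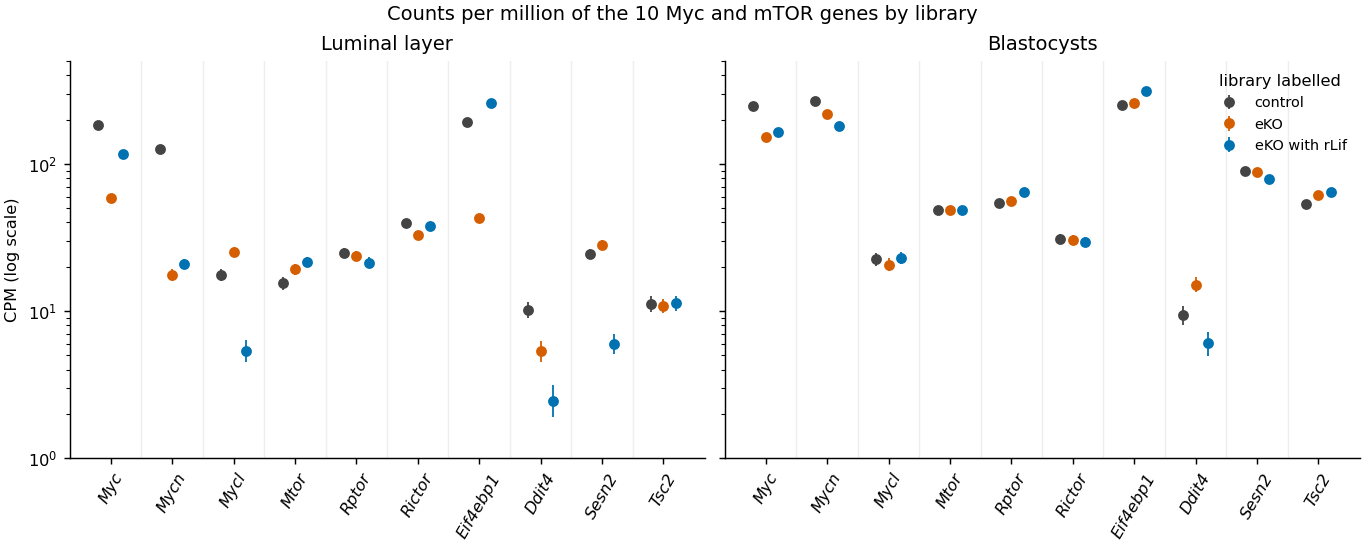
CPM (log scale) of the 10 genes in the luminal libraries (left) and the blastocyst libraries (right) labelled control, eKO and rLif-treated eKO. Points are single libraries and bars are exact 95% Poisson intervals (counting error only). Luminal *Eif4ebp1* is at 193, 43.1 and 260 CPM, while blastocyst *Mtor* and *Rictor* are nearly level.

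The kinase gene and the genes of its partners differed by less than 2-fold within each tissue. *Mtor* (chromosome 4, 148448582 to 148557685, plus strand, protein coding) had 390, 553 and 562 luminal counts and 931, 948 and 946 blastocyst counts. Its blastocyst ratios lay within 0.01 of 0 on the log2 scale, whereas the luminal ones were 0.32 (eKO against control), 0.48 (rLif-treated eKO against control) and 0.16 (treated against untreated). *Rptor* (chromosome 11, 119602995 to 119899591, plus strand, protein coding) had 626, 684 and 554 luminal and 1041, 1087 and 1247 blastocyst counts. Its exons overlap those of A430071A18Rik, so these counts are uncertain. *Rictor* (chromosome 15, 6708381 to 6800400, plus strand, protein coding) had 1006, 942 and 990 luminal and 588, 593 and 572 blastocyst counts. None of the 3 genes was called in any within-tissue comparison.

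*Eif4ebp1* (chromosome 8, 27260327 to 27275656, plus strand, protein coding) encodes 4E-BP1, which binds the cap-binding protein Eif4e and holds back translation until mTORC1 phosphorylates it. It had the highest RPKM of the 10 genes in all 6 libraries. Luminal counts were 4878, 1239 and 6764, or 193, 43.1 and 260 CPM. The library labelled eKO alone was low. *Eif4ebp1* fell 4.48-fold (interval 4.21 to 4.77) in the library labelled eKO against control and was 6.02-fold (interval 5.67 to 6.40) higher after rLif treatment than without it. It was the only one of the 10 genes called higher in any within-tissue comparison. Blastocysts had 4758, 5060 and 6045 counts, and eKO differed from control by a log2 ratio of 0.05, the interval spanning 0. The other 2 blastocyst ratios were 0.32 and 0.26, and neither was called.

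The genes whose products restrain mTORC1 had other patterns. *Sesn2* (chromosome 4, 132492807 to 132510456, minus strand, protein coding) encodes Sestrin2, a leucine sensor that restrains mTORC1 when leucine is scarce. It had 620, 810 and 156 luminal counts. The treated library stood below the other luminal libraries, 4.10-fold (interval 3.43 to 4.92) lower than control and 4.71-fold (interval 3.96 to 5.62) lower than eKO. Blastocysts had 1710, 1716 and 1523 counts, and no difference was called.

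*Ddit4* (chromosome 10, 59949675 to 59951770, minus strand, protein coding) encodes Redd1, a stress-induced protein that inhibits mTORC1 through the Tsc complex. Its luminal counts were 256, 153 and 64. *Ddit4* fell 4.13-fold (interval 3.13 to 5.51) in the treated library against control. The ratio for eKO against control was -0.93 (interval -1.23 to -0.63) and that for rLif-treated against untreated eKO was -1.12 (interval -1.56 to -0.69), and both crossed the limit. In blastocysts *Ddit4* had 179, 295 and 117 counts, or 9.39, 15.1 and 6.02 CPM. The eKO blastocysts were thus highest and the treated ones lowest. *Ddit4* fell 2.51-fold (interval 2.02 to 3.13) in treated against untreated eKO blastocysts, the only call of the 10 genes within blastocysts. The ratio for eKO against control was 0.68 (interval 0.41 to 0.96) and was not called. The sum of the 8 immune markers, all with counts in each blastocyst library, had the same order, at 65.3, 127 and 22.8 CPM. It was led by *Lyz2* with 976, 2128 and 289 counts. *Csf1r*, *Ptprc* and *Adgre1* shared this order. The others did not, with 104, 97 and 34 counts for *C1qa*, 13, 8 and 6 for *Nkg7*, 26, 4 and 14 for *Cd3e* and 41, 66 and 56 for *Cd68*. Red blood cell markers summed to 532, 479 and 250 CPM. The part of these cells in the *Ddit4* result was not tested.

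*Tsc2* (chromosome 17, 24595937 to 24632629, minus strand, protein coding) encodes tuberin, which switches off the mTORC1 activator Rheb. It had 282, 310 and 295 luminal counts and 1014, 1202 and 1251 blastocyst counts. Its luminal ratios all had intervals that spanned 0, and its blastocyst ratios against control were 0.21 for eKO and 0.27 for rLif-treated eKO. The exons of *Tsc2* overlap those of the neighbouring *Pkd1*, so its counts are uncertain.

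Promoter sequences are shown for *Sesn2*, *Ddit4* and *Mycl*, the 3 genes called lower in the luminal library labelled rLif-treated eKO than in control without being called between eKO and control. The windows run from 250 bases before to 50 bases after the RefSeq start (GRCm38.p6), 5′ to 3′ on the gene's strand. That of *Sesn2* is chr4:132510407-132510706 (minus strand), that of *Ddit4* is chr10:59951721-59952020 (minus strand) and that of *Mycl* is chr4:122995681-122995980 (plus strand, at a start that lies before the first exon base in the count table). Capitals mark CCAAT boxes on either strand.
Sesn2: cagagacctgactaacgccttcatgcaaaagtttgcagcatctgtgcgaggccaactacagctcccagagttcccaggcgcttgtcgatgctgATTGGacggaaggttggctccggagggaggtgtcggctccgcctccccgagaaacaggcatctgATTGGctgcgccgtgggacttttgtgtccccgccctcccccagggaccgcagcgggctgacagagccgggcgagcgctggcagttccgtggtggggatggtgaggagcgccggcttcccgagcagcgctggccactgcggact
Ddit4: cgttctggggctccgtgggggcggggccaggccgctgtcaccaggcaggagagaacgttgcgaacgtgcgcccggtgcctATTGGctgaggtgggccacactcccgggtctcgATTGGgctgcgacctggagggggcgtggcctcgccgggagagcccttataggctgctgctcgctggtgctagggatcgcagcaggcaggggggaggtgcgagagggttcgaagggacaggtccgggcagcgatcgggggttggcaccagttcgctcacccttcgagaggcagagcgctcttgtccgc
Mycl: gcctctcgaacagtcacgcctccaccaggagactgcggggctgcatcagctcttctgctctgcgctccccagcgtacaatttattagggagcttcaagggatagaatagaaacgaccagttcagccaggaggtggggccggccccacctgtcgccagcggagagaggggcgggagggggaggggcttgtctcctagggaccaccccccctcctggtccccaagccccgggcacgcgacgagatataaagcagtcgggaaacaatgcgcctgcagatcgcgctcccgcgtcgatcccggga
Motifs were searched on both strands as CACGTG (the E-box bound by Myc and Max), TTCNNNGAA (a Stat site), TGATGNAA (an Atf4 element) and CCAAT, which reads ATTGG on the other strand. *Sesn2* held CCAAT boxes that began at positions -157 and -93 from the start, and *Ddit4* held them at -170 and -137. *Mycl* held none of the 4 motifs. Of the 10 genes, 8 had a RefSeq promoter entry, *Myc* and *Eif4ebp1* being the exceptions. None of these 8 windows held the E-box or the Atf4 element, and *Mtor* alone held the Stat site, once, at position -228. CCAAT boxes were also present in *Mtor* (4) and *Rictor* (1), neither of which was called in any within-tissue comparison. The windows of *Mycn*, *Rptor* and *Tsc2* had none. Among all 32817 promoters of this length, 7.15% held the E-box, 8.29% the Stat site, 3.97% the Atf4 element and 37.4% a CCAAT box. These matches describe the letters of the windows and say nothing of binding.

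**Figure D3:**
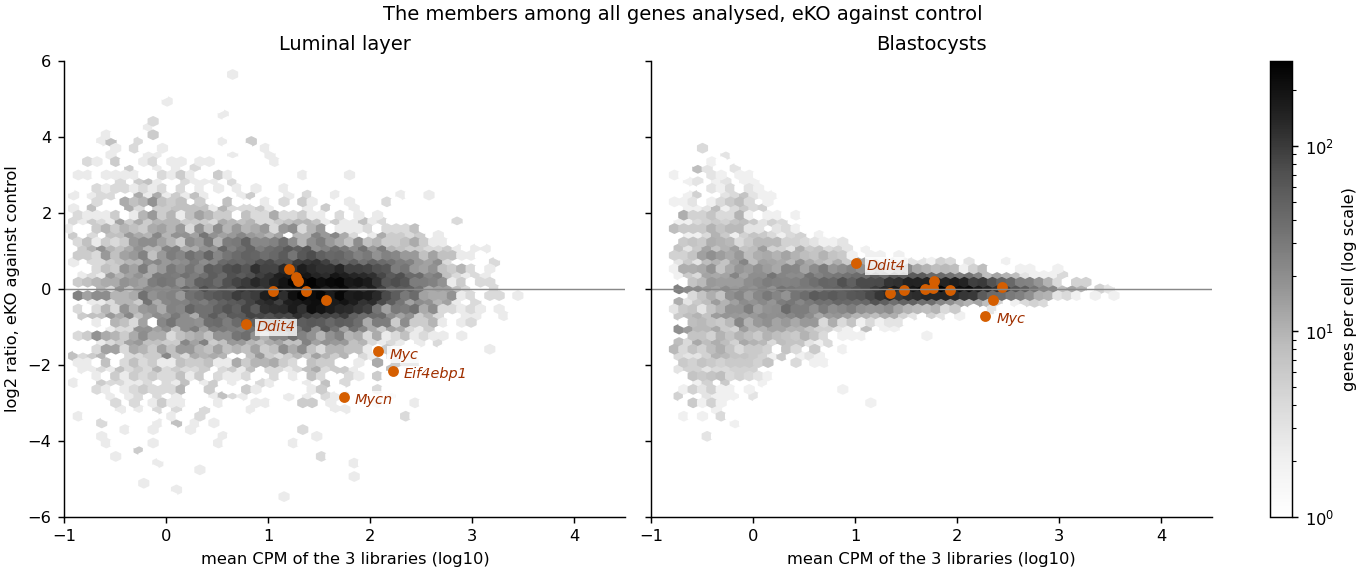
Log2 ratio of eKO against control over mean CPM (log10), in the luminal layer (left) and in blastocysts (right). All analysed genes with counts in each of the 3 libraries of the tissue are drawn. Grey cells give the number of genes (log scale), orange points the 10 genes, labelled where the ratio is farther than 0.6 from 0. Luminal *Mycn*, *Eif4ebp1* and *Myc* are at -2.85, -2.16 and -1.64, and blastocyst *Myc* is at -0.72.

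The order of the levels within a library was compared per length. In the luminal library labelled control the order was *Eif4ebp1* (197 RPKM), *Myc* (76.4), *Mycn* (48.7), *Sesn2* (9.25), *Ddit4* (6.02), *Mycl* (4.997), *Rictor* (4.28), *Rptor* (3.58), *Tsc2* (1.82) and *Mtor* (1.80). Counting intervals overlapped between *Ddit4* and *Mycl*, between *Mycl* and *Rictor*, and between *Tsc2* and *Mtor*. In the luminal library labelled eKO, *Mycn* came after *Sesn2* and *Mycl*, with 6.77 RPKM against 10.6 and 7.24, and its interval overlapped that of *Mycl*. In the library labelled rLif-treated eKO, *Ddit4* (1.46), *Mycl* (1.53), *Tsc2* (1.84) and *Sesn2* (2.26) were the lowest, each with an interval that overlapped that of its neighbour. *Eif4ebp1* exceeded 96.6%, 86.6% and 97.0% of luminal genes in the 3 libraries.

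In control blastocysts the order was *Eif4ebp1* (254 RPKM), *Myc* (104), *Mycn* (103), *Sesn2* (33.8), *Tsc2* (8.65), *Rptor* (7.88), *Mycl* (6.42), *Mtor* (5.68), *Ddit4* (5.57) and *Rictor* (3.31). *Myc* and *Mycn* did not differ beyond their counting intervals in control or in rLif-treated eKO blastocysts. In eKO blastocysts *Mycn* (84.8) was above *Myc* (63.1) with intervals apart. Intervals also overlapped in control between *Tsc2* and *Rptor*, between *Mycl* and *Mtor*, and between *Mtor* and *Ddit4*. *Ddit4* moved from the ninth place to the sixth in eKO blastocysts, at 8.96 RPKM, and was again in the ninth place with rLif, at 3.57. Its interval overlapped those of *Tsc2* and *Rptor* in eKO blastocysts and that of *Rictor* with rLif, so these places are not firm.

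Levels were then compared between blastocysts and the luminal layer of the matching group, with all 6 libraries scaled together. *Sesn2* and *Tsc2* were higher in blastocysts in all 3 matched pairs, with log2 ratios of 1.72, 1.52 and 3.58 for *Sesn2* and 2.10, 2.39 and 2.37 for *Tsc2* in control, eKO and rLif-treated eKO. None of the 10 genes was lower in all 3 pairs. Of 17081 genes, 39.3% were called in all 3 pairs, 19.5% higher and 19.9% lower in blastocysts. *Mtor* had log2 ratios of 1.51, 1.22 and 1.04, the last of which crossed the limit, and *Rptor* had 0.99, 1.11 and 1.46. *Rictor* was the only one with all 3 ratios below 0, at -0.52, -0.23 and -0.50, none of them called. *Mycn* differed by 0.93 in control, 3.53 in eKO and 2.99 in rLif-treated eKO, and *Eif4ebp1* by 0.22, 2.47 and 0.13. *Mycl* had ratios of 0.21, -0.41 and 1.98, *Myc* of 0.30, 1.25 and 0.37 and *Ddit4* of -0.26, 1.39 and 1.16, and 1 pair of each was called. Tissue and the way of collection (microdissection or flushing) cannot be told apart.

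**Figure D4:**
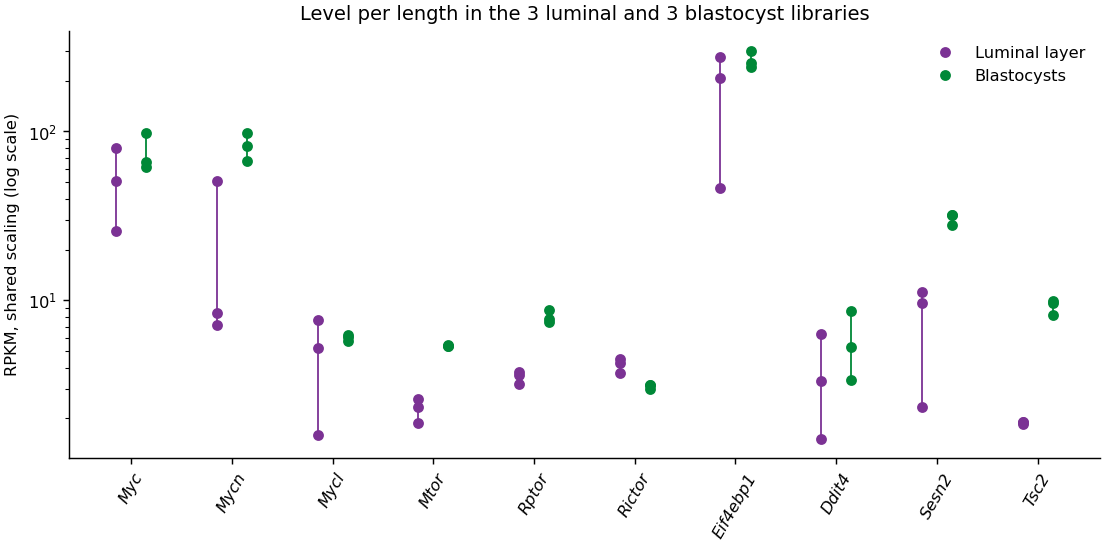
RPKM (log scale, 6 libraries scaled together) of the 10 genes in the 3 luminal libraries (purple) and the 3 blastocyst libraries (green). Points are single libraries and lines join the lowest to the highest of a tissue. *Mycn*, *Mtor*, *Rptor*, *Sesn2* and *Tsc2* are higher in every blastocyst library than in any luminal library, and *Rictor* is lower.

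The other genes of these pathways were described by 8 lists. For the luminal library labelled rLif-treated eKO against control, at most 1 gene of a list was called, higher for the mTOR complexes and the polyamine genes, lower for the Tsc, effector, Max and Myc target lists, and 0 for the Rag and Atf4 lists. Against eKO, the treated library had 3 higher and 0 lower for the mTOR complexes, 1 and 2 for the Rag list, 1 and 3 for the Tsc list, 0 and 1 for the effectors, 4 and 2 for the Atf4 list, 1 and 0 for the Max list, 1 and 1 for the Myc targets and 3 and 0 for the polyamine genes. Of all luminal genes, 7.88% were higher and 7.77% lower in that comparison.

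Among 9 subunits of the mTOR complexes, 3 were lower in the luminal library labelled eKO than in control and 0 were higher, with a median log2 ratio of -0.38. The share over all luminal genes was 9.15% lower and 8.08% higher, here and for each list below. *Deptor*, which encodes an mTOR inhibitor, had 708, 48 and 487 counts, a log2 ratio of -4.07, although its exons overlap those of Gm9920. *Prr5* and *Prr5l*, whose products bind mTORC2, had 478, 141 and 906 counts and 557, 173 and 1380 counts. All 3 were higher in the library labelled rLif-treated eKO than in eKO, by log2 ratios of 3.48, 2.83 and 3.14. In blastocysts *Prr5l* had 0, 10 and 4 counts and was called higher for eKO against control, and no other subunit was called.

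Of 28 genes of amino acid sensing through the Rag GTPases, 5 were higher in the luminal library labelled eKO and 0 lower, with a median of -0.02. *Sesn1*, which encodes another Sestrin, had 299, 1142 and 203 counts and rose by a log2 ratio of 1.75, in contrast to *Sesn2* (0.20). *Castor1* (listed as *Gatsl3*), the gene of an arginine sensor, had 68, 214 and 71 counts, and *Rragb*, a Rag GTPase gene, had 47, 167 and 92. *Castor2* (listed as *Gatsl2*), a relative of *Castor1* with 51, 22 and 91 counts, was called higher for rLif-treated against untreated eKO (2.19). In blastocysts *Fnip2*, whose product binds folliculin, had 924, 1356 and 243 counts and fell in the treated library, by log2 ratios of -1.95 against control and -2.47 against eKO.

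Among 22 genes of the Tsc, Rheb, Akt and AMPK inputs, 2 were higher and 3 lower in the luminal library labelled eKO than in control, with a median of 0.14. The subunit genes of AMPK, the energy sensor that restrains mTORC1, went in opposite directions. *Prkab1* had 6513, 2069 and 6774 counts (-1.84) and *Prkaa2* had 80, 16 and 18 (-2.51), while *Prkab2* had 61, 446 and 143 (2.68). *Irs1*, an adaptor of the insulin receptor, had 329, 1302 and 437 counts (1.80). In blastocysts *Ddit4l*, the relative of *Ddit4*, had 51, 88 and 184 counts and rose by 1.82 in rLif-treated eKO against control, whereas the *Ddit4* ratio there was -0.64 and was not called.

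Among 18 mTORC1 effectors, 1 was higher and 1 lower in the luminal library labelled eKO than in control, with a median of -0.09. *Eif4ebp2*, which encodes the 4E-BP1 relative 4E-BP2, had 1221, 524 and 417 counts. Like *Mycn*, it was low in both eKO libraries, with log2 ratios of -1.41 and -1.59 against control. *Pdcd4*, a translation inhibitor gene whose exons overlap those of *Bbip1*, had 515, 1991 and 803 counts (1.76). *Eif4e*, the gene of the protein that 4E-BPs bind, was at 140, 169 and 183 RPKM in the luminal layer and at 111, 109 and 113 in blastocysts. No effector was called in blastocysts in any of the 3 comparisons, where 3.15% to 4.94% of all blastocyst genes were called. That is near what these shares give for 18 genes.

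The list of Atf4 and stress response genes held 18 genes, of which 2 were higher and 3 lower in the luminal library labelled eKO than in control, with a median of -0.60. *Trib3*, a pseudokinase gene induced by Atf4, had 742, 47 and 903 counts, with log2 ratios of -4.17 in eKO against control and 4.41 after rLif against eKO without it. *Cebpb*, the gene of a transcription factor, had 20279, 6636 and 35920 counts, and *Ppp1r15a*, whose product reverses eIF2 phosphorylation, had 4170, 1762 and 5529. *Vldlr*, a lipoprotein receptor gene, went the other way with 502, 1648 and 436 counts. In blastocysts none of the 18 was called, again near the share over all blastocyst genes.

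Of 18 genes of the Max and Mxd network, which holds the partners and opponents of Myc, 1 was higher and 1 lower in the luminal library labelled eKO than in control, with a median of -0.44. *Pim1*, the gene of a kinase that acts with Myc, had 115, 21 and 69 counts (-2.64), and *Mycbp*, whose product binds Myc, had 1067, 2900 and 2044 (1.26). *Mxi1*, the gene of a Max partner that opposes Myc, had 3149, 1924 and 1386 counts and fell by 1.23 on the log2 scale in rLif-treated eKO against control. *Max* itself was at 49.6, 33.3 and 34.9 RPKM in the luminal layer and was not called. In blastocysts *Mxd1*, which encodes another Max partner that opposes Myc, had 171, 303 and 114 counts and fell by 1.40 on the log2 scale in treated against untreated eKO.

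Of 26 Myc targets of ribosome biogenesis and growth, 1 was higher and 1 lower in the luminal library labelled eKO than in control, with a median of -0.21. *Tfrc*, the transferrin receptor gene, had 1947, 453 and 982 counts (-2.29), the same order as *Myc*. *Wdr43*, a ribosome biogenesis gene, had 1048, 2723 and 2246 counts (1.19). *Ccnd1* and *Ccnd2*, the genes of D-type cyclins, had 952, 857 and 410 and 957, 2196 and 873 counts, and the exons of *Ccnd1* overlap those of Mir3962. In blastocysts 2 of the 26 were lower in eKO than in control and 0 were higher, where 1.86% of all blastocyst genes were lower and 1.29% higher. *Ldha*, the lactate dehydrogenase gene, had 7174, 1888 and 567 counts, with log2 ratios of -1.96 for eKO and -3.69 for rLif-treated eKO, both against control, and of -1.73 for treated against untreated eKO. Pseudogenes closely like *Ldha* make its counts uncertain. *Ccnd2* had 159, 60 and 60 counts, with a ratio of -1.44 for eKO. The median of the 26 in that comparison was -0.09, and that of all blastocyst genes was between -0.01 and 0.

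Polyamines are made and spent in growing cells, and 10 of 13 listed polyamine genes could be analysed. *Azin2* was not found among the genes counted. *Amd1* had 0 counts in every library, and *Oaz1* had 1 count in the luminal library labelled eKO and 0 elsewhere. Whether reads of these genes were lost in counting was not tested. In the luminal library labelled eKO, 2 of the 10 were lower than in control and 0 higher, with a median of -0.71. *Sat1* and *Paox*, which encode enzymes of polyamine breakdown, had 48238, 16271 and 83639 counts and 5735, 855 and 3788 counts. *Arg1*, the gene of arginase, had 93, 45 and 288 luminal counts and rose in the treated library by 1.59 against control and by 2.82 against eKO. In blastocysts *Arg1* had 8, 13 and 53 counts and *Arg2* had 25, 5 and 32, and both were called higher for rLif-treated against untreated eKO (2.04 and 2.69). *Arg1* was also higher for rLif-treated eKO against control (2.70). The exons of *Arg2* overlap those of *Vti1b*. *Odc1*, the gene of the first enzyme of polyamine synthesis and a known Myc target, was at 31.9, 20.5 and 25.9 RPKM in the luminal layer and at 262, 242 and 295 in blastocysts, and was not called.

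**Figure D5:**
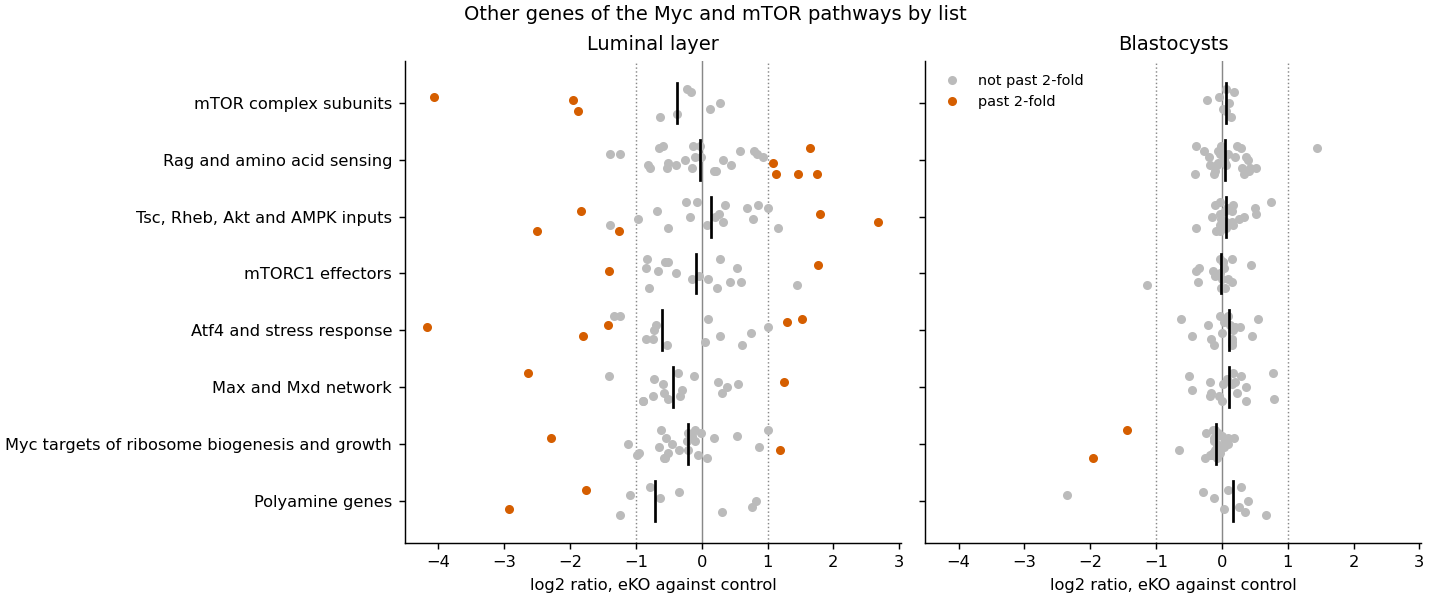
Log2 ratio of eKO against control for the genes of the 8 lists in the luminal layer (left) and in blastocysts (right). Each point is 1 gene, orange where its interval lay past 2-fold, black bars are list medians, and genes with 0 counts in control or eKO are not drawn. Luminal medians run from -0.71 (polyamine genes) to 0.14 (Tsc, Rheb, Akt and AMPK inputs).

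Genes with the pattern most like that of each called gene were sought among 13656 genes, by the distance between their 6 log2 CPM values (with 2 CPM added), centred within each tissue. The distance is in log2 units, and a shorter one means a closer pattern over the 6 libraries after that addition. The 2 CPM added shrink the differences of genes at low levels, so a short distance can hide unlike ratios there. Nearest to *Myc* were *Nkd2* (0.21), *Prkar1b* (0.22) and *Plk3* (0.29), whose exons overlap those of Tctex1d4. In blastocysts *Nkd2* had only 33, 12 and 14 counts and *Prkar1b* only 45, 22 and 19, so their closeness there depends on the 2 CPM added. Nearest to *Mycn* were *Efhd1* (0.31), *Fmo2* (0.40) and C330005M16Rik (0.43). *Efhd1* had 9249, 1722 and 1846 luminal counts and 110, 127 and 81 blastocyst counts.

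*Glrx* (0.14) and *Pnp* (0.16) were nearest to *Eif4ebp1*, followed by *Xkr5* (0.25). *Pnp*, the gene of purine nucleoside phosphorylase, had 7268, 1938 and 10858 luminal counts. *Bmf* (0.25), *Tnfrsf19* (0.26) and *Sesn2* (0.34) were nearest to *Mycl*, and *Prr15l* (0.21), *Slc23a1* (0.32) and *Mycl* (0.34) to *Sesn2*, so that *Mycl* and *Sesn2* were each among the 3 closest to the other. *Ddit4* was closest to *S100g* (0.21), the gene of the calcium-binding protein calbindin-D9k, which had 226229, 184121 and 96232 luminal and 74, 146 and 50 blastocyst counts. *Rab15* (0.31) and *Zdhhc14* (0.34) came next. *Ddit4* itself was at 10.1, 5.33 and 2.46 CPM in the luminal libraries, levels at which the 2 CPM added shrink its differences.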

How the data were processed

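Libraries were made by the authors with SMART-seq v4, and paired-end reads were aligned with HISAT2 to GRCm38/mm10 and counted per gene with featureCounts of Subread 2.0.0. The tables the authors deposited, 1 for each tissue, hold whole-number counts, although the study's methods describe them as RPKM. The gene annotation used, its release, strand handling and treatment of multi-mapping reads are not given in the sources used here. Groups came from the sample labels. A gene was analysed in a tissue where its counts there summed to 10 or more. TMM scaling used edgeR 4.0.16 in R 4.3.3. Intervals were computed with scipy 1.17.1 and cover counting error only, since PCR reads without molecular identifiers are not independent molecules. The call rule was tried on simulated data with large changes only, with counting error alone and with a dispersion of 0.1. This does not show how it does with the unknown spread between real pools. Other scalings (DESeq2 1.42.0, total counts), filters and limits were tried, as was edgeR's exact test with the study's limits (2-fold, FDR 0.05) and an assumed dispersion, since 1 library per group gives none.

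All 10 genes are described. From each list at most 4 called genes per tissue were named, those with the interval farthest from 0, and a few others (*Max*, *Eif4e*, *Odc1*) for their role. The genes, lists and rules were chosen with earlier results of these data known. Exon overlap was read from the deposited tables, gene types from GENCODE M21 and promoters from RefSeq.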

Additional observations from a re-analysis of the deposited data

Results flagged for a closer look

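Of 30 pairs of gene and comparison, 3 had intervals clear of 0 in opposite directions in the luminal layer and in blastocysts. Intervals clear of 0 were common among all genes. For eKO against control, 5841 of 15694 luminal genes lay wholly above 0 and 5883 below, and 3393 and 3274 of 14873 blastocyst genes. The share of all genes with opposite directions was not counted, so 3 of 30 is not shown to be unusual. The difference between the tissues was not tested, since each group was 1 library. The *Ddit4* log2 ratio for eKO against control was -0.93 in the luminal layer and 0.68 in blastocysts. The *Rptor* log2 ratio for eKO with rLif against control was -0.22 in the luminal layer and 0.23 in blastocysts, with counts that are uncertain because of an overlapping gene. The *Mycn* log2 ratio for eKO with rLif against eKO was 0.25 in the luminal layer and -0.27 in blastocysts. None of these 6 ratios was called.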

How the results depend on the processing

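Luminal calls depended on the limit and the assumed spread. The numbers of genes called for luminal eKO against control, eKO with rLif against control and eKO with rLif against eKO were 2704, 1438 and 2456. They were 11724, 10384 and 11212 at a log2 limit of 0, 868, 295 and 750 at a limit of 2, and 1250, 342 and 1109 by edgeR's exact test at an assumed dispersion of 0.1. At a dispersion of 0.4 they were 29, 0 and 36. In blastocysts the numbers were 468, 734 and 557, then 6667, 7865 and 7832 at a limit of 0, 100, 149 and 93 at a limit of 2, 65, 124 and 58 at a dispersion of 0.1, 0 in each at 0.4, and 210, 447 and 325 with at least 50 counts. Between tissues 6717 genes became 11467 at a limit of 0 and 3588 at a limit of 2.

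Of the 10 genes, 3, 4 and 3 were called in the luminal comparisons, 8, 8 and 7 at a limit of 0. At a limit of 2, *Mycn* and *Eif4ebp1* were still called for eKO against control. For eKO with rLif, 1 was then called against control (*Mycn*) and 1 against eKO (*Eif4ebp1*). At a dispersion of 0.1, 1 was called for eKO with rLif against control (*Mycn*), while *Myc* was not called for eKO against control, and at 0.4 it was 0 in each. In blastocysts 0, 0 and 1 became 4, 7 and 6 at a limit of 0, and the *Ddit4* call was lost at a limit of 2 and at both dispersions, leaving 0. Between tissues 2 became 8 at a limit of 0 and 0 at a limit of 2. The limits set these numbers by construction, and no ratio of the 10 genes changed sign once called. Scaling by total counts moved the median log2 ratio of all genes from 0.01 to -0.17 for luminal eKO with rLif against control and from -0.01 to -0.12 against eKO, and the share of higher calls in the former went from 45.0% to 29.9% (439 higher and 1031 lower). With that scaling 7 ratios of the 10 genes, all with the rLif-treated luminal library, moved by more than their counting interval, while 173 ratios under the scalings tried did not. No paired analysis was possible because each group was 1 library. The spread between pools is unknown, and depth limits *Ddit4* most, with 64 to 295 counts. TMM scaling over only the 2 libraries compared, chosen after seeing the data, changed no call of the 10 genes.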
